A study of Mus musculus with 6 samples.

Results

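Galectins and the surface glycoproteins that carry their ligands were examined in resting T helper cells: 4 galectins (Lgals1, Lgals3, Lgals8 and Lgals9), the galectin-3 binding protein Lgals3bp, the hyaluronan receptor Cd44, the sialomucins Spn (CD43) and Selplg (PSGL-1), and Cd24a, the heat-stable antigen. These 9 genes were given as a list by symbol, and each was read from the only transcript cluster named for it alone. There were 19938 genes with a singly named cluster and 23410 named clusters in all. The arrays measured CD4+TCRβ+ cells sorted from the inguinal, brachial and axillary lymph nodes of unimmunized females aged 8 weeks, born in litters of both sexes. There were 3 pools of wild-type C57BL/6J (B6) females and 3 pools of B6-ChrYSJL females, each of 5 mice, and a replicate is a pool. B6-ChrYSJL mice are C57BL/6J mice whose males carry the Y chromosome (ChrY) of the SJL strain. The daughters inherit no ChrY, so the groups differ in the ChrY of their fathers, and the comparison asks whether the resting transcriptome of their T helper cells differs. All animals otherwise share the C57BL/6J background, and neither group was treated.

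Galectins are lectins that bind β-galactosides on glycoproteins and, by linking them, hold surface receptors in a lattice or signal through them. Galectin-1 and galectin-3 are known to act on T-cell survival and T-cell receptor signaling, and galectin-8 and galectin-9 join a pair of different carbohydrate-binding domains in 1 chain. Sialomucins carry dense O-glycans that end in sialic acid. PSGL-1 is the ligand of the selectins by which effector T cells enter inflamed tissue, while CD43 is a long, negatively charged molecule that holds cells apart. CD44 binds hyaluronan in the matrix and is the surface marker by which memory and effector T cells are separated from naive ones.

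The pools held T-cell transcripts throughout. Of 8 T cell markers 7 were measured and all lay above the background level of 5.98 on the log2 scale, a cutoff that 95% of 1210 clusters of odorant and pheromone receptors stayed under. The mean log2 signal of Cd3e, which encodes a CD3 signaling chain, was 12.49 ± 0.02 (SD, n = 3 pools) for B6 and 12.50 ± 0.02 for B6-ChrYSJL, and that of Cd4 was 11.54 ± 0.06 and 11.51 ± 0.03. Of the 9 genes, 8 lay above the background level, and Cd24a did not. B6 replicate 2 stood apart in its interferon-stimulated genes and B6-ChrYSJL replicates 2 and 3 in their B cell markers. The values are given beside Lgals3bp and Cd24a, and their part in these genes was not tested.

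Lgals3, Lgals1 and Cd44 averaged lower in B6-ChrYSJL, by 1.22-, 1.18- and 1.20-fold. None of the 9 genes passed a false discovery rate (FDR) of 0.05 in limma, a moderated linear model fitted over all 23410 clusters. Of these clusters 4 (0.0171%) passed it (0 to 55 over the alternatives). The study, with its own linear model, reported no transcript as differentially expressed at an FDR under 0.05. At an unadjusted p under 0.05 there were 3 of the 9, all lower in B6-ChrYSJL, where 10.6% of all clusters tested reached that p (5.92% lower and 4.69% higher in B6-ChrYSJL) and 11.1% of those above background. The pools of the groups did not overlap for 5 of the 9, namely Lgals3, Lgals1, Cd44 and Spn, which were lower in B6-ChrYSJL, and Lgals8, which was higher; over all clusters 17.1% did not overlap, and 9.42% did so with lower values in B6-ChrYSJL. The log2 fold change (B6-ChrYSJL minus B6) was below 0 for 7 of the 9 and for 51.1% of all clusters. Its median was −0.08 over the 9 genes and −0.0036 over all clusters. In pooled cells, fewer cells of a kind and less RNA per cell cannot be told apart.

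**Figure D1:**
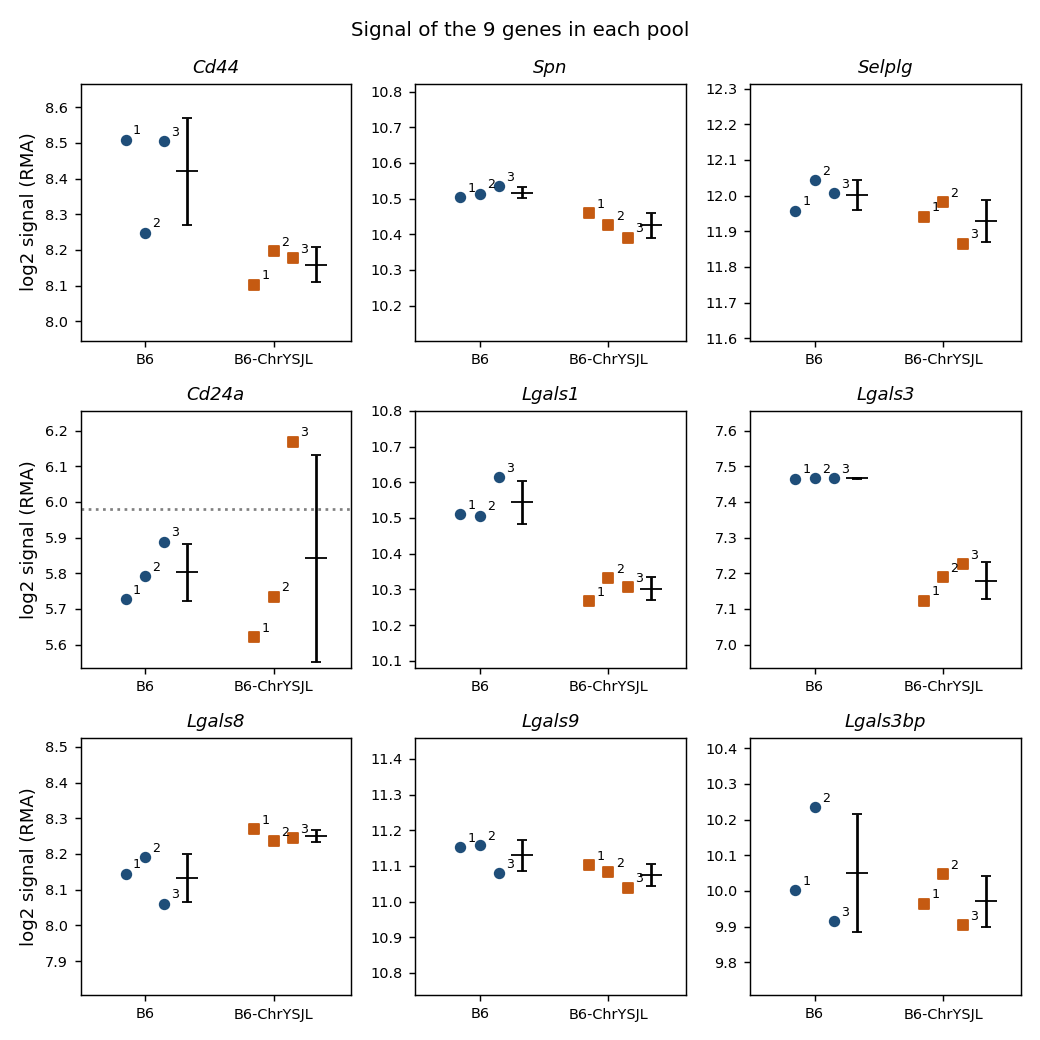
Log2 RMA signal (vertical) of the 9 genes in each pool of B6 (circles) and B6-ChrYSJL (squares), numbered by replicate; the dash with whiskers beside the points gives mean ± SD (n = 3 pools), every panel spans the same height, and the dotted line in the Cd24a panel is the background level of 5.98. The pools of the groups do not overlap for Cd44, Spn, Lgals1, Lgals3 and Lgals8.

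Promoter sequences of those genes that the results turn on are shown where the RefSeq table for GRCm38.p6 held them, which was the case for 6 of the 9 genes (Cd44, Spn, Lgals3, Lgals8, Lgals9 and Lgals3bp; not Selplg, Cd24a or Lgals1). Each stretch is the 150 bases before the transcript start, 5′ to 3′ on the gene's strand. The first pair belongs to genes that averaged lower in B6-ChrYSJL, on chromosome 14 (chr14:47373710-47373859, plus strand) and chromosome 2 (chr2:102901666-102901815, minus strand), and capitals mark a GC box (GGGCGG on either strand), the site known for the general activator Sp1; the Cd44 stretch holds none, its match lying after the start.
Lgals3: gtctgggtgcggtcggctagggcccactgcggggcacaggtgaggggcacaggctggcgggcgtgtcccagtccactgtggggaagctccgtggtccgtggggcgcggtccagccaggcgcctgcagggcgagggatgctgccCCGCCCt
Cd44: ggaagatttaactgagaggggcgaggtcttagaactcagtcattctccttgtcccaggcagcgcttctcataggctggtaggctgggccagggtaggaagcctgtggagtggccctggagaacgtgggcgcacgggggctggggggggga
The second pair, Lgals9 (chr11:78984925-78985074, minus strand) and Lgals3bp (chr11:118401960-118402109, minus strand), belongs to genes known to respond to interferon, and capitals mark the core bound by interferon regulatory factors (AANNGAAA on either strand); the first capitals of Lgals9 are a core that begins 1 base before the stretch.
Lgals9: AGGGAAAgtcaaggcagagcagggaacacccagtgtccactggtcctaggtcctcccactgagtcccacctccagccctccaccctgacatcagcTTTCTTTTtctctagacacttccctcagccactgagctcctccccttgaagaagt
Lgals3bp: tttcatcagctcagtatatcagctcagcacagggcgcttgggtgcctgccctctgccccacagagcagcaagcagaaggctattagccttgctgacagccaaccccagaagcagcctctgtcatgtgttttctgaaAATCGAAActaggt
Lgals9 held the same core again at bases 16 to 23 after the start, within a stretch of 30 bases (chr11:78984890-78984919, minus strand).
Lgals9 after the start: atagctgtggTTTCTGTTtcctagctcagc

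Searched over 250 bases before to 50 after the start, on both strands, the interferon regulatory factor core was present in 3 of the 6 genes, Lgals9 (from −151 to −144, −55 to −48 and 16 to 23), Lgals3bp (from −14 to −7) and Spn (from −238 to −231), and in 23.9% of 32851 windows of the same length in the table. A longer form searched first, the same core with GA directly before it, was present in 1 of the 6 (Lgals9) and in 3.44% of windows, and the shorter form was chosen after that result was seen. The GC box was present in 2 of the 6, Lgals3 (from −7 to −2 and from 5 to 10) and Cd44 (from 4 to 9), and in 35.7% of windows. Neither the AP-1 site (TGANTCA, in 7.81% of windows) nor the interferon-gamma activated site (TTCNNNGAA, in 8.3%) was present in any of the 6. A match describes the letters of these windows and is not a measured site.

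Lgals3 (transcript cluster 10414360) encodes galectin-3, a lectin that forms oligomers through its N-terminal tail, is abundant in macrophages and is made by T cells after activation. Its signal was 7.47 in each of the 3 B6 pools and 7.12, 7.19 and 7.23 in the B6-ChrYSJL pools. The B6 pools were almost identical and lay above all B6-ChrYSJL pools, with a gap of 0.24 between the nearest ones. Lgals3 had a log2 fold change of −0.29 (standard error 0.06, 95% interval −0.43 to −0.14, adjusted p = 0.257 in limma). Of 9 macrophage and other myeloid markers measured, 4 lay above background, and Csf1r, Adgre1, Cd14, Flt3 and Itgax did not. The 4 above it all averaged lower in B6-ChrYSJL: Lyz2 (−0.24), Fcgr3 (−0.13), Itgam (−0.10) and Cd68 (−0.04). Of all 9 markers 6 averaged lower and 3 higher (median −0.07). At an unadjusted p under 0.05, 1 (Itgax) was higher in B6-ChrYSJL and none lower. The summed linear signal of these markers ranged from 626 to 699 in B6 and from 608 to 661 in B6-ChrYSJL. Their part in the Lgals3 difference was not tested.

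Lgals1 (10425161) encodes galectin-1, a dimeric lectin that binds CD43, CD45 and CD7 on T cells and that activated and regulatory T cells make. The B6 pools measured 10.51, 10.51 and 10.61 and the B6-ChrYSJL pools 10.27, 10.33 and 10.31. The groups were separated by 0.17, more than the range within either group. This gave a log2 fold change of −0.24 (standard error 0.06, 95% interval −0.39 to −0.09, adjusted p = 0.329 in limma). Over the alternatives the adjusted p lay between 0.0683, with a variance that follows the intensity, and 0.633.

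Lgals8 (10407766) encodes galectin-8, which binds the integrin chains of matrix receptors and marks damaged endosomes. Its signal was 8.15, 8.19 and 8.06 in the B6 pools and 8.27, 8.24 and 8.24 in the B6-ChrYSJL pools. All B6-ChrYSJL pools lay above all B6 pools, by 0.04 at the nearest. The difference on the log2 scale was 0.12 (standard error 0.06, 95% interval −0.03 to 0.27, adjusted p = 0.556 in limma), an interval that includes 0.

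Lgals9 (10388902) encodes galectin-9, a ligand of the inhibitory receptor TIM-3. The B6 pools measured 11.15, 11.16 and 11.08 and the B6-ChrYSJL pools 11.10, 11.08 and 11.04, with overlapping groups. It varied least of the 9 genes, over a range of 0.12 in the 6 pools. Its log2 fold change was −0.06 (standard error 0.06, 95% interval −0.20 to 0.09, adjusted p = 0.787 in limma).

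The 4 galectins were compared with each other by the difference of their log2 fold changes, taken within each array. The change of Lgals3 lay 0.40 below that of Lgals8, and the difference of their log2 values had an SD of 0.07 in either group. The change of Lgals1 lay 0.36 below that of Lgals8, and the changes of Lgals3 and Lgals1 lay 0.23 and 0.19 below that of Lgals9. The groups did not overlap in these 4 pairs or in Lgals8 against Lgals9 (0.17). Each gave p = 0.1 in an exact two-sided permutation test over the 10 splits of the 6 arrays (0.12 after adjustment over 6 pairs). That is the smallest value that 3 pools against 3 allow. Any pair without overlap gives it, so it adds nothing to the separation, and the pairs share genes. Lgals1 and Lgals3 overlapped (difference 0.04, p = 0.4 in the same exact test).

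**Figure D2:**
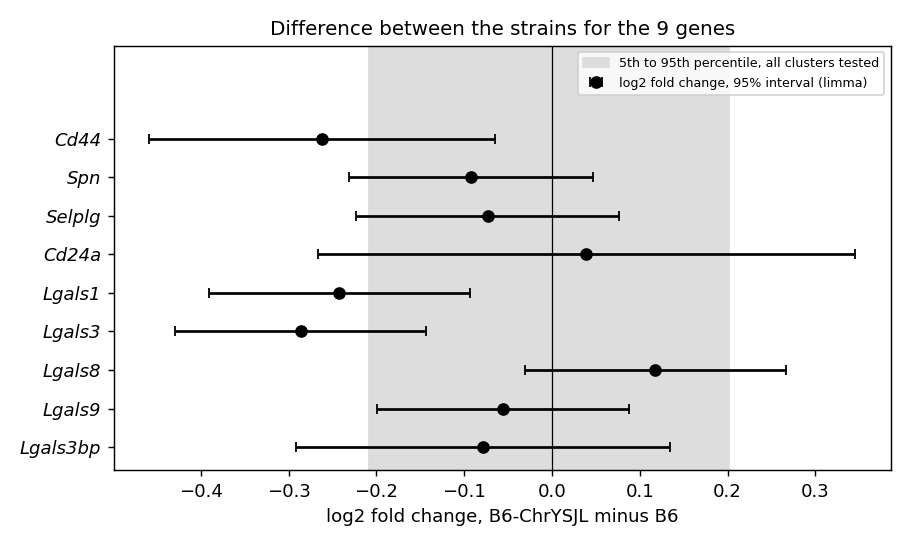
Log2 fold change (B6-ChrYSJL minus B6, horizontal) of the 9 genes with its 95% interval from limma (3 pools a group); the grey band spans the 5th to 95th percentile of the log2 fold changes of all 23410 clusters, −0.21 to 0.20. Lgals3, Lgals1 and Cd44 lie below the band with intervals that do not reach 0, and the other 6 lie inside it.

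Lgals3bp (10393573) encodes a secreted, heavily glycosylated scavenger-like protein that binds galectin-3 and is known to be induced by interferon. Its signal was 10.00, 10.23 and 9.91 in the B6 pools and 9.96, 10.05 and 9.90 in the B6-ChrYSJL pools. The groups overlapped, with B6 replicate 2 above all other pools. The log2 fold change was −0.08 (standard error 0.09, 95% interval −0.29 to 0.13, adjusted p = 0.798 in limma), and it was 0.01 without B6 replicate 2.

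That pool also had the highest interferon-stimulated genes. Of 28 listed genes 24 were measured, 23 of them above background (not Mx1), and none differed between the strains at an unadjusted p under 0.05. Their mean, each gene centred over the 6 arrays, was −0.19, 0.44 and −0.11 in the B6 pools and −0.03, 0.09 and −0.19 in the B6-ChrYSJL pools. B6 replicate 2 and B6-ChrYSJL replicate 2 held the highest and next highest values of both the list and Lgals3bp, and B6-ChrYSJL replicate 3 the lowest of both. The summed linear signal of the list ranged from 10672 to 15593 in B6 and from 10797 to 12522 in B6-ChrYSJL. Lgals9, whose promoter window holds 3 interferon regulatory factor cores, measured 11.16 in B6 replicate 2 and 11.15 in B6 replicate 1, so that this pool did not stand apart. The part of the interferon-stimulated genes in the Lgals3bp values was not tested. The study's own list of alternatively spliced transcripts, called at an FDR under 0.05, holds Lgals3bp and Lgals9 and none of the others among the 9 genes. The share of all genes on that list was not worked out here, so nothing about the 9 genes follows from it. The values used here are 1 per whole transcript, and exons were not analysed here.

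Cd44 (10485405) measured 8.51, 8.25 and 8.50 in the B6 pools and 8.10, 8.20 and 8.18 in the B6-ChrYSJL pools. The B6 pools spread over 0.26, with replicate 2 lowest, and the nearest pools of the groups lay 0.05 apart. For Cd44 the log2 fold change was −0.26 (standard error 0.09, 95% interval −0.46 to −0.06, adjusted p = 0.381 in limma). Leaving out B6 replicate 1 (−0.22), B6 replicate 3 (−0.22) or B6-ChrYSJL replicate 1 (−0.23) took the unadjusted p of Cd44 above 0.05, and the value was −0.35 when B6 replicate 2 was left out. Isoforms of CD44 that differ by variable exons share this value.

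Spn (10568174) encodes CD43, the most abundant sialomucin of resting T cells. It measured 10.50, 10.51 and 10.53 in the B6 pools and 10.46, 10.43 and 10.39 in the B6-ChrYSJL pools. The groups did not overlap and lay 0.04 apart at the nearest. The log2 fold change was −0.09 (standard error 0.06, 95% interval −0.23 to 0.05, adjusted p = 0.621 in limma).

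Selplg (10532744) encodes PSGL-1, which binds P-selectin once its chain is sulfated and its O-glycans are branched and fucosylated. The B6 pools measured 11.96, 12.04 and 12.01 and the B6-ChrYSJL pools 11.94, 11.98 and 11.87. The groups overlapped, and the log2 fold change was −0.07 (standard error 0.07, 95% interval −0.22 to 0.08, adjusted p = 0.725 in limma).

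Cd24a (10362896) encodes a small, lipid-anchored sialoglycoprotein that is prominent on B cells, immature T cells, granulocytes and red cell precursors and low on resting T cells. Its signal was 5.73, 5.79 and 5.89 in the B6 pools and 5.62, 5.73 and 6.17 in the B6-ChrYSJL pools, so that only B6-ChrYSJL replicate 3 lay above the background level. The log2 fold change was 0.04 (standard error 0.13, 95% interval −0.27 to 0.35, adjusted p = 0.938 in limma) and −0.12 without that pool.

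B cell markers were highest in the same pool. Of 10 markers 9 were measured, 5 of them above background (not Ms4a1, Fcer2a, Blnk or Cr2), and 1, H2-Ab1, was higher in B6-ChrYSJL at an unadjusted p under 0.05. Their centred mean was −0.21, −0.11 and −0.05 in the B6 pools and −0.22, 0.24 and 0.36 in the B6-ChrYSJL pools. Their summed linear signal ranged from 674 to 768 in B6 and from 670 to 1072 in B6-ChrYSJL. Cd79a, a chain of the B-cell receptor complex, measured 6.75 in B6-ChrYSJL replicate 3 and between 5.71 and 6.15 in the other 5 pools. B6-ChrYSJL replicate 2, with the next highest B cell markers, had a Cd24a signal of 5.73, inside the range of B6. Of 7 granulocyte markers 1, Elane, lay above background and none differed at an unadjusted p under 0.05. Of 6 erythroid markers 3 were measured and none differed at that p, and of 5 genes of immature T cells Dntt was lower (−0.32) and Ptcra higher (0.22). The part of these cells in the Cd24a values was not tested. Among other cells the sort could hold, none of 6 NK cell markers (2 above background) differed at an unadjusted p under 0.05. All 6 averaged lower in B6-ChrYSJL (median −0.13). Their centred mean ranged from 0.04 to 0.07 in B6 and from −0.09 to −0.01 in B6-ChrYSJL. Both CD8 T cell markers were lower in B6-ChrYSJL at that p. The centred mean of the CD8 markers ranged from 0.09 to 0.29 in B6 and from −0.30 to −0.15 in B6-ChrYSJL. Of 9 measured stromal and endothelial markers 3, Pdpn, Col1a2 and Col3a1, were higher at that p and none lower (median 0.04). Over all clusters 4.69% were higher at that p. Col1a1, Pecam1 and Ccl19, also above background, did not differ at that p.

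**Figure D3:**
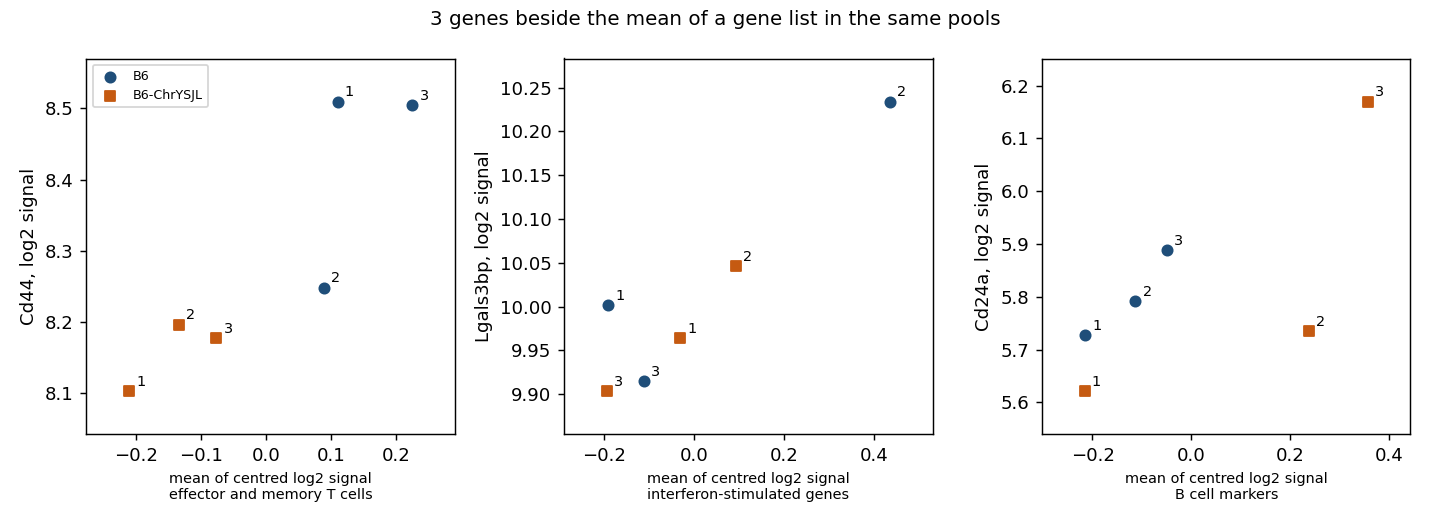
Log2 signal of Cd44, Lgals3bp and Cd24a (vertical) against the mean of a gene list, each gene centred on its mean over the 6 arrays (horizontal), in the same pools; circles are B6 and squares B6-ChrYSJL, numbered by replicate. B6 replicate 2 is highest for Lgals3bp and for the interferon-stimulated genes, and B6-ChrYSJL replicate 3 for Cd24a and the B cell markers.

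The partners and makers of these molecules were mostly close together in the groups. Of 7 galectin counter-receptors 1 was lower at an unadjusted p under 0.05: Itgb1, the integrin β1 chain, which galectins cross-link and which memory cells carry at high density. It measured 9.42, 9.38 and 9.47 in the B6 pools and 9.11, 9.06 and 9.07 in the B6-ChrYSJL pools, without overlap (log2 fold change −0.34, standard error 0.06, adjusted p = 0.192 in limma). Ptprc, the phosphatase CD45, was at 0.02 and Cd7 at 0.01, while Havcr2 (TIM-3), at −0.04, averaged below background. The median of the 7 was 0.02. Of the other galectins 6 of 7 were measured, 3 of them above background; Lgals2 was lower at an unadjusted p under 0.05 (−0.31), with an average of 4.93, and the median was 0.02.

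Among 17 Golgi enzymes that build galectin and selectin ligands, 1 was lower and 1 higher at an unadjusted p under 0.05, and the median was 0.01. Gcnt1, which adds the core 2 branch to O-glycans of PSGL-1 and CD43, measured 5.93, 5.98 and 5.84 in the B6 pools and 5.27, 5.18 and 5.41 in the B6-ChrYSJL pools, and both groups averaged below background (log2 fold change −0.63, standard error 0.08, adjusted p = 0.0707 in limma, where 0.0726% of all clusters passed an FDR of 0.1). Mgat1, which starts the complex branches of N-glycans, was at 0.24 (standard error 0.10, adjusted p = 0.458 in limma), with overlapping pools. C1galt1, which builds core 1 O-glycans, was at 0.14 without passing. Mgat5, whose branched N-glycans galectin-3 favors, was at −0.06, and the enzymes that finish PSGL-1, the fucosyltransferase Fut7 and the sulfotransferases Tpst1 and Tpst2, were between 0.00 and 0.03.

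Of 17 genes of hyaluronan and CD44 binding 15 were measured, and 1, Hmmr, a hyaluronan receptor of dividing cells below background, was lower at an unadjusted p under 0.05 (−0.25). The synthases Has1 (−0.14, below background) and Has3 (0.15) did not pass, nor did Ezr, Msn and Rdx, which tie CD44, CD43 and PSGL-1 to actin (0.00, −0.06 and 0.00). None of 8 other sialomucins passed, Glycam1 (−0.23), Muc1 (−0.13) and Madcam1 (0.18), all below background, having the smallest p. None of 8 siglecs passed, among them Siglecg (0.02), the receptor of CD24. The endothelial selectin gene Sele was at 0.05 and did not pass.

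Lists of T cell states were set beside Lgals3, Lgals1 and Cd44; over all clusters 5.92% were lower and 4.69% higher at an unadjusted p under 0.05. Of 24 measured genes of effector and memory cells, Cd44 left out, 12 were lower and none higher at an unadjusted p under 0.05 (median −0.17), led by Ccr2, a chemokine receptor (−0.83, adjusted p = 0.0707 in limma), S100a6, a calcium-binding protein (−0.77), and Klrg1 (−0.75, below background in the mean). Of 18 regulatory T cell genes 13 were lower and none higher (median −0.23), led by Itgae, the integrin chain CD103, the only gene of these lists past an FDR of 0.05 (−0.87, adjusted p = 0.0218 in limma; no cluster passed in 5 alternatives, among them those without B6 replicate 2, B6-ChrYSJL replicate 1 or B6-ChrYSJL replicate 2), Capg (−0.47) and Nt5e (−0.36). Of 12 measured cell cycle genes 9 were lower and none higher (median −0.31). Mki67 (−0.62), Top2a (−0.48) and Kif11 (−0.64, below background in the mean) came first. Both CD8 T cell markers, of other cells the sort could hold, were lower as well (Cd8a −0.54, Cd8b1 −0.28). Naive genes had a median of 0.03 over 11 measured, with 2 lower, Igfbp4 (−0.23) and Dapl1 (−0.29). These lists were chosen with earlier results of the same arrays known, and their counts are descriptions.

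Pool by pool, the centred mean of the effector and memory list was 0.11, 0.09 and 0.22 in B6 and −0.21, −0.13 and −0.08 in B6-ChrYSJL, and its summed linear signal ranged from 20105 to 21046 in B6 and from 18449 to 18897 in B6-ChrYSJL. B6 replicate 2, the lowest B6 pool for Cd44, was also the lowest of B6 in the centred mean of this list (not in its summed signal, where replicate 1 was) and of the regulatory list (0.12, 0.06 and 0.22 in B6, −0.17, −0.09 and −0.14 in B6-ChrYSJL). B6-ChrYSJL replicate 1 was the lowest of the 6 pools for Cd44, Lgals1, Lgals3 and both lists. The part of these cell states and of CD8 T cells in the 3 genes was not tested.

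**Figure D4:**
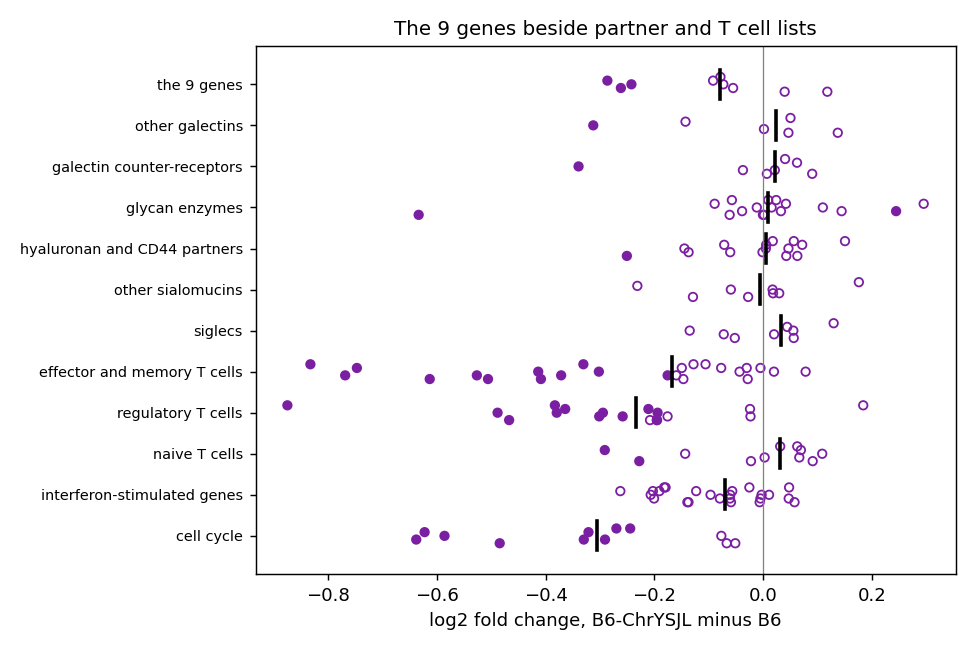
Log2 fold change (B6-ChrYSJL minus B6, horizontal) of each measured gene of the 9 genes and of the partner and T cell lists; filled symbols reach an unadjusted p under 0.05 in limma, open ones do not, and the black bar is the list median. Filled symbols lie to the left for the effector and memory, regulatory and cell cycle lists, while the medians of the 6 partner lists drawn (the selectins are not) lie between −0.01 and 0.03.

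For each of the 8 genes above background, the most similar profiles were sought among 13494 other clusters, by the root mean square difference of log2 values centred over the 6 pools, which include the strain difference. The nearest to Lgals3 were Fcrl1, an Fc receptor-like protein of B cells (0.02), Relb, a subunit of NF-κB (0.03), and Oxsm (0.03), where Lgals3 itself varied by 0.15 around its mean. Those of Lgals1 (own variation 0.13) were Peak1 (0.02), Smim6 (0.03) and Mtus2 (0.03). Those of Cd44 (0.16) were 9130023H24Rik (0.03), Atraid (0.04) and I730030J21Rik (0.04), none of them on the lists above. The nearest to Lgals3bp (0.11) was Pml, the scaffold of nuclear bodies and an interferon-induced gene (0.02), followed by Nr1i3 and Spindoc (0.03 each). Those of Selplg (0.06) were Dnm1l, which divides mitochondria, Setd5 and Sf3a3 (0.01 each). Those of Spn (0.05) were Ubap2l, Aven and Mapkap1 (0.01 each), and those of Lgals9 (0.04) were Tmpo, Noa1 and Lpcat4 (0.01 each). Those of Lgals8 (0.07) were Egfl8, Arf1 and 2700062C07Rik (0.02 each). With 6 pools and many clusters, close profiles are common, and no shared role follows from them.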

How the data were processed

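Per the submitters' processing notes and the methods, the authors ran RMA (background correction, quantile normalization, median polish) in Partek on Affymetrix Mouse Gene 1.0 ST arrays, hybridized with cDNA amplified from 50 ng of RNA, and deposited log2 values, 1 for each transcript cluster on each array. The notes also name GCOS and mm9. No further normalization was applied here. Of 35556 clusters, 23410 had a symbol in the platform annotation, and 1621 of these had several and were tested but not named. Symbols were updated by gene identifier through RefSeq for GRCm38.p6. A limma model (limma 3.58.1, R 4.3.3; B6-ChrYSJL minus B6, two-sided, without a block) covered these clusters together, and adjusted p-values are Benjamini-Hochberg values over the same 23410. The median standard error was 0.08. The 9 genes and the 21 other lists were chosen with earlier results of these data known. Genes named were the 9, up to 3 of each list with the smallest p, any past an FDR of 0.1, Cd3e and Cd4, and the 3 nearest profiles; other list members were named after their values were seen. On simulated data for this comparison (23410 clusters, 100 changed by 0.5 and 100 by 1 on the log2 scale) the fit recovered 83 and 100 at an FDR of 0.05, with 11 false calls. The simulated noise was independent between clusters and used the moderated variances. Changes as small as those of the 9 genes were not simulated, so their recovery is not known from it. Alternatives varied the variance model, weights, cluster filter, normalization, pairing by replicate number and the arrays included. Nothing states that pools came from separate litters, so p-values measure the spread between pools. The number of arrays limits the precision. Python 3.11.15 with matplotlib 3.10.9 made the plots.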

Additional observations from a re-analysis of the deposited data

How the results depend on the processing

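None of the 9 genes passed an FDR of 0.05 in limma or under any of the 16 alternatives, of which the restriction to clusters above background did not test Cd24a. Over all clusters tested, 4 passed it, against 0 with the unmoderated model, with all deposited clusters and without B6 replicate 2, B6-ChrYSJL replicate 1 or B6-ChrYSJL replicate 2, where none passed an FDR of 0.1 either, so that Itgae, Ccr2 and Gcnt1 were not called there; 55 passed with a variance that follows the intensity, 13 among clusters above background or with gene means, and 11 after median centring. At an unadjusted p under 0.05 there were 3 of the 9 (10.6% of all clusters), and 5 (9.71% of all clusters) with the unmoderated linear model of the methods, which added Spn and Lgals8; the other alternatives gave 2 to 4. With an array left out the count lay between 2 and 3 (7.61% to 10.8% of all clusters), and the median log2 fold change of the 9 genes, −0.08, between −0.0995 (without B6-ChrYSJL replicate 2) and −0.0534 (without B6 replicate 2). Lgals3 and Lgals1 kept their direction and an unadjusted p under 0.05 in all 16, and Cd44 in 13. For Lgals3bp the log2 fold change was lowest without B6 replicate 3, at −0.146, and turned positive without B6 replicate 2, at 0.0133. For Cd24a it was highest without B6-ChrYSJL replicate 1, at 0.149, and turned negative without B6-ChrYSJL replicate 3, at −0.125. With the replicate number as a block, 3 of the 9 genes had an unadjusted p under 0.05 (9.45% of all clusters) and none passed an FDR of 0.05. Deviations of same-numbered pools from their group means had correlations of −0.00010, −0.036 and −0.017 over 23410 clusters. Differently numbered pools gave −0.039 to 0.054. With 3 pools a group, such values cannot show whether same-numbered pools were handled together. The cell type marker lists and the immature T cell list were scored under no alternative. The other lists were scored only with median centring, with the replicate block and with an array left out, not under the other alternatives. There the count of genes at an unadjusted p under 0.05 ranged from 10 to 13 for the effector and memory list. It ranged from 9 to 14 for the regulatory list and from 6 to 9 for the cell cycle list. The median of the interferon-stimulated genes, −0.07, ranged from −0.21 to 0.11 over the alternatives scored for lists. Differences below the background level, such as those of Cd24a, Gcnt1 and Lgals2, are limited by signal.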
